A study of Mus musculus with 30 samples.

Results

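Adding KCL-HO-1i, an inhibitor of heme oxygenase-1 (HO-1), to gemcitabine was examined by comparing 5 tumours of mice given both drugs with 5 tumours of mice given gemcitabine alone. All members of both groups were taken as the titles name them, so the comparison used 10 of the 30 bulk RNA-sequencing libraries of the study. The other 20 libraries, 5 each from mice given vehicle, 5-FU, KCL-HO-1i alone or KCL-HO-1i/5-FU, entered the fit and served as other drug backgrounds. The mice were FVB/N-Tg(MMTV-PyVT)634Mul/J, labelled WT in genotype, and every group, vehicle included, carried the transgene, in which the MMTV promoter drives polyoma middle T antigen in mammary epithelium so that tumours arise spontaneously. The tissue label is breast, and no age is given in the labels used here. Per the labels, gemcitabine was given at 64 mg/kg every 7 days, KCL-HO-1i at 25 µmol/kg every day, and treatment lasted 72 hours. Elsewhere in the study's own account both the duration and the gemcitabine dose are smaller, so the exposure behind these libraries is uncertain.

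HO-1, encoded by Hmox1, breaks heme down to biliverdin, carbon monoxide and iron. Biliverdin reductase turns biliverdin into bilirubin, ferroportin exports the iron and ferritin stores it. Heme itself induces Hmox1, because it releases the repressor BACH1 from genes that NRF2 can then activate, and in macrophages heme also induces SPIC. In these tumours HO-1 is known from perivascular macrophages that carry LYVE-1. KCL-HO-1i is a phosphate salt of tin mesoporphyrin, a heme-like compound that blocks the enzyme and not its transcript, so the Hmox1 level is no check of inhibition. Gemcitabine is a deoxycytidine analogue that deoxycytidine kinase (Dck) activates, and its products block DNA synthesis and ribonucleotide reductase (Rrm1 and Rrm2).

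Total counts over the 30 libraries ran from 10067698 to 13622395, and every library of the comparison had the luminal markers of the labelled tissue. Epcam, an epithelial adhesion protein, ran from 590 to 1502 CPM (counts scaled to the library size) and Krt8, a luminal keratin, from 597 to 1417 CPM. Several libraries stood apart. KCL-HO-1i/gemcitabine replicate 2 held skeletal muscle RNA, with a summed level of 22 muscle genes of 17770 CPM against 69.46 to 488.8 CPM in the other 9 libraries, and it had the most adipocyte RNA, 16290 CPM. Gemcitabine replicate 5 had the most adipocyte RNA in its group, 2932 CPM, and the most haemoglobin RNA, 743.7 CPM. Gemcitabine replicate 3 had higher levels along chromosome 7, described with the chromosomes. Mice also carry a code in the labels whose meaning is not stated: gemcitabine replicates 1 to 4 share code 76 and replicate 5 has 86, while the combination has 73, 70, 71, 72 and 84. No code occurs in both groups, so within these 10 libraries the code and the treatment cannot be told apart. A fit with the code as a covariate works only by way of the other groups, and its median standard error was 0.498 on the log2 scale against 0.209 without it.

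No gene of 13663 tested passed an adjusted p of 0.05 in edgeR's quasi-likelihood test, which is 0% of genes, and the smallest adjusted p was 0.282. limma-voom with sample quality weights called 0 as well. DESeq2 called 45, of which 35 were higher and 10 lower in the combination, and 14 of the 45 had all 5 libraries of a group outside the range of the other. Most of the 35 were genes of muscle, Ttn, Neb, Ryr1 and Actn2 among them. Hmox1, Abcc3, Hpgd, Spock2, Vstm4 and Hcls1 were among the few that were not. The part of the muscle RNA of combination replicate 2 in these DESeq2 calls was not tested. At an unadjusted p under 0.05, edgeR had 948 genes higher (6.94%) and 890 lower (6.51%) with the combination. All values that follow are therefore differences that did not pass the adjusted test, and "higher" and "lower" name the direction of the fitted value only. Counts within gene lists are to be read beside these shares of 6.94% and 6.51%, which change when a library is left out.

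The higher and lower genes differed in size. The median log2 fold change of the 948 higher genes was 1.17 and that of the 890 lower genes was -0.38, and 57.4% of the higher but 6.29% of the lower genes were beyond a log2 fold change of 1. All 5 combination libraries lay above all 5 gemcitabine libraries for 95 genes (0.695%) and below them for 131 genes (0.959%). Of these, 74 and 117 were also under the unadjusted limit. Without the muscle-bearing replicate 2, 580 genes were higher (4.21%) and 899 lower (6.53%), and 421 of the 948 and 690 of the 890 were again under the limit. Without gemcitabine replicate 5 the counts were 1382 higher (9.99%) and 1498 lower (10.8%). Without both, a setting chosen after seeing the data, they were 849 (6.18%) and 1196 (8.70%).

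Hmox1 itself had the largest log2 fold change of the 15 higher genes that a rule of no overlap between groups named. Its levels were 29.8, 26.6, 50.4, 19.3 and 60.3 CPM in gemcitabine replicates 1 to 5 and 149, 209, 418, 115 and 120 CPM in combination replicates 1 to 5. Every combination tumour lay above every gemcitabine tumour, and replicate 3 was the highest. The mean was 37.3 ± 17.3 CPM on gemcitabine and 202 ± 126 CPM on the combination (SD, n = 5 each), a ratio of 5.42, and the fitted log2 fold change was 2.44 ± 0.66 (SE; edgeR adjusted p = 0.282). In DESeq2 the adjusted p was 0.0315. Leaving out any library of the comparison kept the value between 1.97 and 2.64, and in the fit with the mouse code it was 2.7 ± 1.56. Hmox2, the constitutive isoenzyme, was 75.5 ± 6.81 CPM on gemcitabine and 76.9 ± 7.3 CPM on the combination, a log2 fold change of 0.03 ± 0.11 (SE) whose sign turned when some libraries were left out, so no direction is given.

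**Figure D1:**
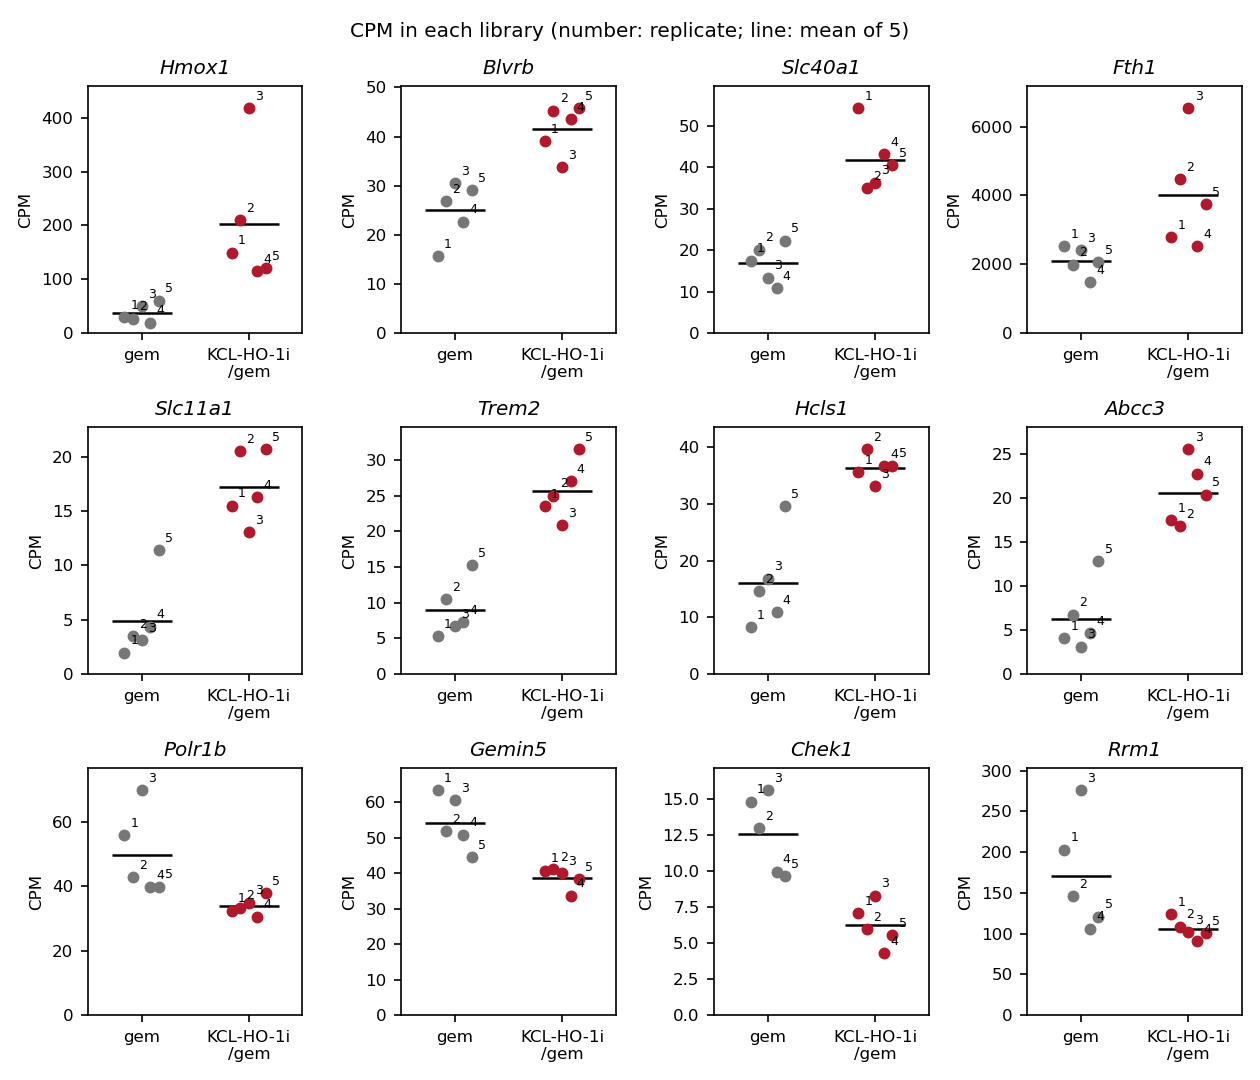
Level of 12 genes in each tumour, in CPM on a linear axis from 0, with the replicate number at each point and a line at the mean of 5 libraries. Hmox1 was 19.3 to 60.3 CPM on gemcitabine and 115 to 418 CPM on the combination, and in all panels but Rrm1 the groups did not overlap.

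Downstream of HO-1, the biliverdin reductases differed from each other. Blvrb, which encodes biliverdin reductase B, was 15.7, 26.9, 30.5, 22.7 and 29.1 CPM on gemcitabine and 39.1, 45.3, 33.7, 43.5 and 45.7 CPM on the combination. The groups did not overlap, and the log2 fold change was 0.73 ± 0.21 (SE; edgeR adjusted p = 0.282), and 0.27 ± 0.53 in the fit with the mouse code. Blvra, the main reductase of adult tissue, had levels of 25.3 to 34.1 and 27.7 to 34.9 CPM, which overlapped, with a log2 fold change of 0.09 ± 0.13. Slc48a1, which moves heme out of lysosomes and endosomes, was 70.1 to 104 CPM on gemcitabine and 118 to 142 CPM on the combination, without overlap (log2 fold change 0.57 ± 0.24, adjusted p = 0.323), and had 0.11 ± 0.61 with the mouse code. Slco2b1, an organic anion transporter, was also higher (1.43 ± 0.59), but its groups overlapped and the value without combination replicate 2 was 0.78.

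Over the whole list of heme breakdown and transport genes, 15 of 18 were tested, 5 were higher and 0 lower at the unadjusted limit, and the median log2 fold change was 0.34 beside 0.00 over all tested genes. Without combination replicate 2, 3 were higher and the median was 0.20. Of the 13 genes of heme synthesis, 0 were higher and 0 lower in edgeR, and the median was -0.12.

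Among the iron genes, Slc40a1, Slc11a1 and Fth1 were higher without overlap between groups and Tfrc was not, while the list as a whole was mixed. Slc40a1, encoding ferroportin, was 17.5, 20.1, 13.4, 10.8 and 22.3 CPM on gemcitabine and 54.2, 35, 36.3, 43.1 and 40.5 CPM on the combination. No library overlapped, and the log2 fold change was 1.32 ± 0.44 (SE; edgeR adjusted p = 0.282; 1.17 to 1.41 with a library left out). In the fit with the mouse code it was 0.01 ± 0.89. Slc11a1 (NRAMP1), which moves iron out of the phagosomes of macrophages, was 1.96, 3.51, 3.11, 4.35 and 11.4 CPM against 15.5, 20.5, 13.1, 16.3 and 20.7 CPM. Gemcitabine replicate 5 was the highest of its group but stayed under every combination library (1.82 ± 0.52, adjusted p = 0.282).

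The ferritin heavy chain gene Fth1 was 2520, 1990, 2411, 1475 and 2063 CPM on gemcitabine and 2791, 4480, 6527, 2521 and 3748 CPM on the combination. The groups touched but did not overlap, and the log2 fold change was 0.94 ± 0.36 (SE; edgeR adjusted p = 0.300). The light chain gene Ftl1 was 812 to 1856 and 1478 to 2432 CPM, which overlapped through gemcitabine replicate 3 (0.70 ± 0.24, adjusted p = 0.282). Ftl1 lies on chromosome 7 and had 0.92 without that library. Steap4, a metalloreductase, had a log2 fold change of 1.12 ± 0.38, with levels of 60 to 166 and 151 to 312 CPM. Tfrc, the transferrin receptor, had -0.28 ± 0.33 and overlapping groups, and 1.41 in the fit with the mouse code. Of 26 tested genes of iron export, uptake and storage, 7 were higher and 1 lower, with a median of 0.10.

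The antioxidant list was mixed. Of 35 tested genes that NRF2 and BACH1 control, 4 were higher and 0 lower, and the median was 0.17. Sod1, the cytosolic superoxide dismutase, was 106 to 125 CPM on gemcitabine and 142 to 205 CPM on the combination without overlap, a log2 fold change of 0.42 ± 0.14 (SE; edgeR adjusted p = 0.282). Gstm1, a glutathione transferase, was 11.8 to 42.4 and 41.2 to 135 CPM (1.70 ± 0.47), and Me1, malic enzyme, 117 to 251 and 230 to 435 CPM (0.70 ± 0.28). In both, a gemcitabine library reached into the range of the combination.

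Genes of macrophages were higher throughout. All 24 tested members of the macrophage list had a positive log2 fold change, and the median was 0.98. At the unadjusted limit 16 were higher and 0 lower, beside 6.94% and 6.51% of all tested genes. Their summed level was 693.1, 1364, 805.1, 975.2 and 2208 CPM on gemcitabine and 2584, 2872, 1665, 2315 and 3200 CPM on the combination. Gemcitabine replicate 5 lay within the range of the combination and the other 4 below it. Without that replicate, 21 of 24 were higher, beside 9.99% of all tested genes. With other libraries left out, the count was lowest, 8, without gemcitabine replicate 1, and it was 9 without gemcitabine replicate 3 and 14 without combination replicate 2. Over all tested genes, 5.13% were higher without gemcitabine replicate 3 and 4.21% without combination replicate 2. In bulk tissue, more macrophages and more RNA per macrophage cannot be told apart.

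Trem2, a lipid-sensing receptor of tumour macrophages, was 5.31, 10.5, 6.68, 7.29 and 15.3 CPM on gemcitabine and 23.6, 25, 20.9, 27.1 and 31.5 CPM on the combination. No library overlapped, and the log2 fold change was 1.51 ± 0.41 (SE; edgeR adjusted p = 0.282). Its adaptor Tyrobp was 9.31 to 40.5 and 34.5 to 63 CPM (1.25 ± 0.42), and Cd84, a receptor of the SLAM family, 2.86 to 14.2 and 13.5 to 20.2 CPM (1.29 ± 0.46). Both overlapped only through gemcitabine replicate 5. The general markers were less separated. Cd68, a lysosomal glycoprotein, had 0.99 ± 0.42, Csf1r, the receptor for CSF1, 0.78 ± 0.38, and Adgre1, which encodes F4/80, 0.98 ± 0.49, and each overlapped between groups.

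SPIC, the factor that heme induces in macrophages, was near the detection limit. Spic was 0.0816, 0, 0.0916, 0 and 0.596 CPM on gemcitabine and 1.33, 0.704, 0.248, 2.26 and 1.79 CPM on the combination, from 8 reads in all against 78. Gemcitabine replicate 5 and combination replicate 3 overlapped. The log2 fold change was 3.04 ± 0.99 (SE; edgeR adjusted p = 0.282), and 2.7 to 4.59 with a library left out. Vcam1, an adhesion molecule also used by red pulp macrophages, was 4.49 to 19.1 and 9.17 to 25.1 CPM (1.11 ± 0.63, adjusted p = 0.419). On the list of SPIC and red pulp macrophage genes, 7 of 12 tested were higher and 0 lower, with a median of 1.13, and 5 of 13 without combination replicate 2, with a median of 0.91. Some of these genes, Hmox1 among them, are also on the lists above.

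The LYVE-1 perivascular macrophage list moved with combination replicate 2 and gemcitabine replicate 5. All 19 genes were positive, 6 were higher and the median was 1.07, but without the first of these libraries 2 were higher and the median was 0.45, and without the second 12 were higher and the median was 2.19. Lyve1 was 0.98, 2.42, 0.824, 0.698 and 15 CPM on gemcitabine and 5.04, 18.1, 0.248, 0.0754 and 5.64 CPM on the combination. The groups overlapped over nearly their whole range, and the log2 fold change, 0.55 ± 1.18 (SE), was -0.54 without combination replicate 2 and 2.19 without gemcitabine replicate 5. Mrc1, which encodes CD206, went from 1.23 ± 0.86 to 0.31 and 2.43, and Cd163, the haemoglobin scavenger receptor, from 0.98 ± 0.94 to 0.21 and 1.83. Cbr2, a carbonyl reductase, kept 1.48 ± 0.52 without combination replicate 2, from 33.9 to 69.1 CPM on gemcitabine and 67 to 189 CPM on the combination. The part of muscle and fat RNA in the other values was not tested.

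Genes of leukocyte signalling followed the macrophage genes. Of 40 tested, 18 were higher and 0 lower, 37 had a positive sign, and the median was 0.79. The count was 30 without gemcitabine replicate 5, 8 without combination replicate 2 and 5 without gemcitabine replicate 1. Hcls1, a cortactin-like substrate of kinases in blood cells, was 8.25, 14.6, 16.8, 10.9 and 29.6 CPM on gemcitabine and 35.7, 39.6, 33.1, 36.7 and 36.8 CPM on the combination. The groups did not overlap, and the combination libraries lay close together at 36.4 ± 2.34 CPM (SD, n = 5). The log2 fold change was 1.18 ± 0.31 (SE; edgeR adjusted p = 0.282, DESeq2 adjusted p = 0.0484). Lcp2 (SLP-76), an adaptor of immune receptors, was 3.18 to 9.64 and 7.91 to 16.9 CPM (1.23 ± 0.33, adjusted p = 0.282). Lilr4b, a receptor of myeloid cells, had 7 reads in all on gemcitabine and 130 on the combination. Its log2 fold change of 4.09 ± 1.19 rests on those low counts. Ptprc, which encodes CD45, was 7.35 to 26.3 and 18.2 to 34.4 CPM (0.65 ± 0.37).

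Complement genes were higher too, and depended on the same libraries. All 21 were positive, 11 were higher, and the median was 1.21, with 17 higher without gemcitabine replicate 5 and 3 without combination replicate 2, and 1 without gemcitabine replicate 3 and without gemcitabine replicate 4. C1qa, C1qb and C1qc, the chains of C1q made by macrophages, had log2 fold changes of 0.90 ± 0.39, 1.03 ± 0.38 and 0.94 ± 0.39. C1qb was 28.9, 61.9, 36.1, 47 and 125 CPM on gemcitabine and 130, 136, 99.6, 103 and 142 CPM on the combination, so only replicate 5 of gemcitabine overlapped. Among the chemokine receptors, 3 of 12 tested were higher, with Cx3cr1, the fractalkine receptor, at 11.8 to 47 and 43 to 75.1 CPM (1.05 ± 0.38) and Ccr1 at 0.80 ± 0.37. Csf3r, the receptor for G-CSF on neutrophils, did not overlap between groups, at 0.898 to 3.09 and 3.8 to 5.73 CPM (1.26 ± 0.52), while it was the only gene higher of 12 tested for monocytes and neutrophils.

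T cell genes were too low to follow well. Cd8a was 0.735, 0.751, 3.11, 1.63 and 0.795 CPM on gemcitabine and 0.816, 0.503, 0.496, 3.17 and 0.895 CPM on the combination, from 81 and 74 reads in all. The groups overlapped. The log2 fold change was -0.25 ± 0.63 (SE), -3.55 ± 1.47 in the fit with the mouse code, and 0.27 without gemcitabine replicate 3. Cd3e, a chain of the T cell receptor complex, had -0.62 ± 0.74, and 0.51 without the same library. Gzmb, encoding granzyme B, had 0.30 ± 0.54, with 1.37 to 5.28 and 1.71 to 6.41 CPM, and -2.39 in the fit with the mouse code. Cd8b1 and Ifng did not pass the filter, and Ifng had 2 reads on gemcitabine and 0 on the combination. Of 18 tested, 3 were higher and 0 lower, beside 6.94% and 6.51% of all tested genes. The median was 0.44, and 0.05 without combination replicate 2. Among the higher were Cd247, the zeta chain of the receptor, at 2.29 to 4.21 and 2.15 to 10.5 CPM (1.01 ± 0.36), and Gzma (2.82 ± 1.18, all levels under 2 CPM).

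Chemokine ligands gave little. Of 25 tested, 2 were higher and 0 lower, beside 6.94% and 6.51% of all tested genes, with a median of 0.45. Without combination replicate 2 none of 26 was higher and 1 was lower by edgeR at the same limit. Ccl5, Cxcl9 and Cxcl12, which draw T cells, had 0.42 ± 0.58, 0.94 ± 0.84 and 0.44 ± 0.66, and -0.24, -0.12 and -0.43 without that library. Ccl21a had 0.20 ± 1.45, with 0 CPM in 1 gemcitabine and 3 combination libraries. Cxcl14 was 7.22 to 46.1 and 11 to 87 CPM (0.98 ± 0.58). Interferon-stimulated genes were balanced, with 0 of 36 higher and 0 lower in edgeR, 18 positive and 18 negative, and a median of 0.00.

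**Figure D2:**
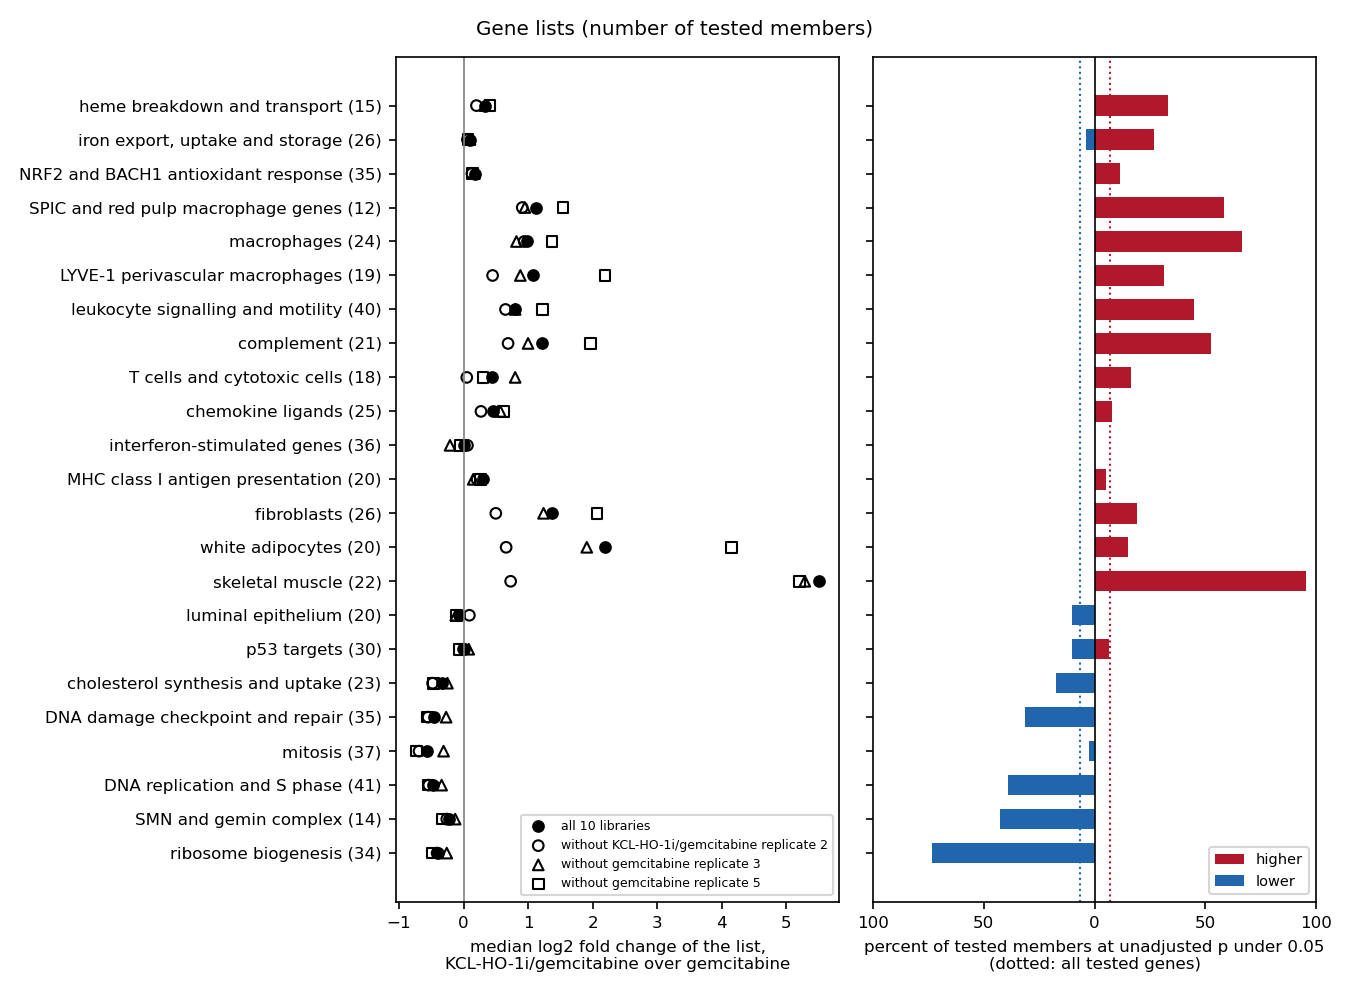
Gene lists, with the median log2 fold change of their tested members on the left (all 10 libraries, and without combination replicate 2, gemcitabine replicate 3 or gemcitabine replicate 5) and the percent of members at an unadjusted p under 0.05 on the right; dotted lines mark all tested genes. The macrophage list was at 0.98 with all libraries and the ribosome biogenesis list at -0.39, while the muscle list went from 5.51 to 0.73 without combination replicate 2.

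Genes of other tissues moved with single libraries, and not all with the same one. Of 22 skeletal muscle genes, 21 were higher, with a median of 5.51, and 0 without combination replicate 2 (median 0.73). Acta1, skeletal actin, was 3945 CPM in that library and 0.148 to 77 CPM in the other 4 of the combination. Without the same library the 20 adipocyte genes went from 3 higher and a median of 2.19 to 0 and 0.66, the 26 fibroblast genes from 5 and 1.37 to 0 and 0.50, and the 28 vessel endothelium genes from 5 and 0.89 to 0 and 0.13. Without gemcitabine replicate 5 these lists moved the other way, to 17 higher and a median of 4.15 for adipocytes, 16 and 2.07 for fibroblasts and 13 and 1.21 for endothelium. Adipoq, encoding adiponectin, then had 4.7 and Lpl, lipoprotein lipase, 3.52. Col1a1 and Pecam1, collagen and CD31, went from 1.39 ± 0.72 to 0.19 and from 0.93 ± 0.50 to 0.14 without combination replicate 2. A different library carried smooth muscle genes. Acta2 was 658 CPM and Cnn1, calponin, 112 CPM in combination replicate 3, against 8.37 to 107 and 0.151 to 10.4 CPM in the other 4, and without it their log2 fold changes were 1.11 and 2.45, down from 3.10 ± 0.81 and 5.35 ± 1.36.

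A rule that asked for no overlap named further genes of varied function. Abcc3 (MRP3), an exporter of conjugated organic anions, was 4.08, 6.76, 3.11, 4.66 and 12.8 CPM on gemcitabine and 17.5, 16.8, 25.5, 22.8 and 20.4 CPM on the combination. It had the smallest p of the higher genes named by that rule (1.71 ± 0.42; edgeR adjusted p = 0.282, DESeq2 adjusted p = 0.0236). Hpgd, which inactivates prostaglandins, was 2.2 to 5.66 and 8.97 to 15.7 CPM (1.81 ± 0.47). Cyb5a, cytochrome b5, was 39.6 to 75.5 and 86.3 to 169 CPM (1.02 ± 0.27), Gabarapl1, an autophagy protein, 73.7 to 103 and 116 to 166 CPM (0.56 ± 0.16), and Camk2d, a calcium-dependent kinase, 17.1 to 28.6 and 31.7 to 44.4 CPM (0.70 ± 0.19). Also named were Spock2, Vstm4, Rab24, Dnase1l1, Kank3 and Tmem140, from 0.47 for Rab24 to 1.91 for Spock2, besides Hmox1, Trem2 and Hcls1.

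Among the lower genes, those of ribosome biogenesis stood out by number. All 34 had a negative log2 fold change, and the median was -0.39. At the unadjusted limit 25 were lower and 0 higher, beside 6.51% and 6.94% of all tested genes. The count was 25 without combination replicate 2 and 13 without gemcitabine replicate 3 (median -0.26), and between 18 and 30 with any other library of the comparison left out. Over all tested genes, 6.53% were lower without combination replicate 2 and 5.29% without gemcitabine replicate 3. In 7 genes (Polr1b, Utp4, Tsr1, Heatr1, Noc3l, Rrp1b and Nop14) all 5 combination libraries lay below all 5 of gemcitabine, beside 0.959% of all tested genes. In the fit with the mouse code 0 were lower, 26 of 34 were negative, and the median was -0.23.

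Polr1b, a large subunit of RNA polymerase I, which transcribes ribosomal RNA genes, was 56, 42.9, 69.9, 39.8 and 39.9 CPM on gemcitabine and 32.5, 33.4, 34.9, 30.6 and 37.9 CPM on the combination. The groups came close but did not overlap, and the log2 fold change was -0.55 ± 0.14 (SE; edgeR adjusted p = 0.282, DESeq2 adjusted p = 0.0408). Wdr3, a part of the complex that processes the small subunit RNA, had the smallest p of the lower genes so named, with 52.9, 49.4, 56.9, 48.6 and 49.5 CPM against 38.8, 38.1, 44.6, 38 and 39.6 CPM. Its spread was small, 3.45 and 2.76 CPM (SD, n = 5 each), and the difference was -0.37 ± 0.09 (edgeR adjusted p = 0.282, DESeq2 adjusted p = 0.0183). Wdr43 and Utp4 of the same complex had -0.46 ± 0.12 and -0.47 ± 0.12. Tsr1, a maturation factor of the small subunit, had -0.36 ± 0.09, from 87.9 to 108 and 72.4 to 86.8 CPM, and Heatr1, needed for transcription by polymerase I, had -0.70 ± 0.19, but 0.08 in the fit with the mouse code.

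The SMN and gemin complex, which assembles spliceosomal small nuclear ribonucleoproteins, was also lower in part. Of 14 genes, 6 were lower and 0 higher, beside 6.51% and 6.94% of all tested genes, with a median of -0.22. Without gemcitabine replicate 3, 3 were lower, beside 5.29% of all tested genes. Gemin5, which recognises the small nuclear RNA, was 63.27, 51.8, 60.6, 50.8 and 44.5 CPM on gemcitabine and 40.6, 41, 40, 33.6 and 38.2 CPM on the combination. No library overlapped, and the log2 fold change was -0.49 ± 0.12 (SE; edgeR adjusted p = 0.282, DESeq2 adjusted p = 0.0424), yet 0.02 in the fit with the mouse code. Ddx20, which encodes gemin 3, did not overlap either (-0.54 ± 0.15), and Prmt5, a methyltransferase that prepares the Sm proteins, overlapped slightly (-0.32 ± 0.10).

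DNA replication genes were lower as a group but by libraries that differed. All 41 were negative, with a median of -0.47, and 16 were lower and 0 higher, beside 6.51% and 6.94% of all tested genes. The count ran from 1 without gemcitabine replicate 3, where 5.29% of all tested genes were lower, to 30 without gemcitabine replicate 4. It was 4 without combination replicate 4, 6 without gemcitabine replicate 1 and 9 without combination replicate 5. In the fit with the mouse code the direction turned for most of them, with 26 of 41 positive and a median of 0.13. No gene of the list lacked overlap. Pole, the leading strand polymerase, was 24, 13.9, 14.4, 12 and 10.5 CPM on gemcitabine and 7.64, 11.2, 8.18, 5.95 and 7.87 CPM on the combination. Its log2 fold change was -0.88 ± 0.30 (SE; edgeR adjusted p = 0.288), and 0.61 in the fit with the mouse code. Ccne1, cyclin E1, was 51.4 CPM in gemcitabine replicate 3 and lies on chromosome 7, and its difference of -1.20 ± 0.42 was -0.74 without that library, then above the unadjusted limit, and 0.10 with the code. Fen1, a flap nuclease, had -0.61 ± 0.23, and 0.08 with the code.

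Mitosis genes gave 1 lower of 37, beside 6.51% of all tested genes, with all 37 negative and a median of -0.57. Without both gemcitabine replicate 5 and combination replicate 2 the count was 17, beside 8.70% of all tested genes. It was 24 without gemcitabine replicate 4. With the mouse code all 37 were positive, with a median of 0.72. Mki67, which encodes Ki-67 and lies on chromosome 7, was 264, 153, 477, 146 and 108 CPM on gemcitabine and 177, 197, 99.2, 84.5 and 113 CPM on the combination. The groups overlapped, gemcitabine replicate 3 was far the highest, and -0.78 ± 0.41 (SE; edgeR adjusted p = 0.396) became -0.33 without it and 0.95 with the mouse code. Top2a, topoisomerase II alpha, had -0.77 ± 0.37, and 0.76 with the mouse code.

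**Figure D3:**
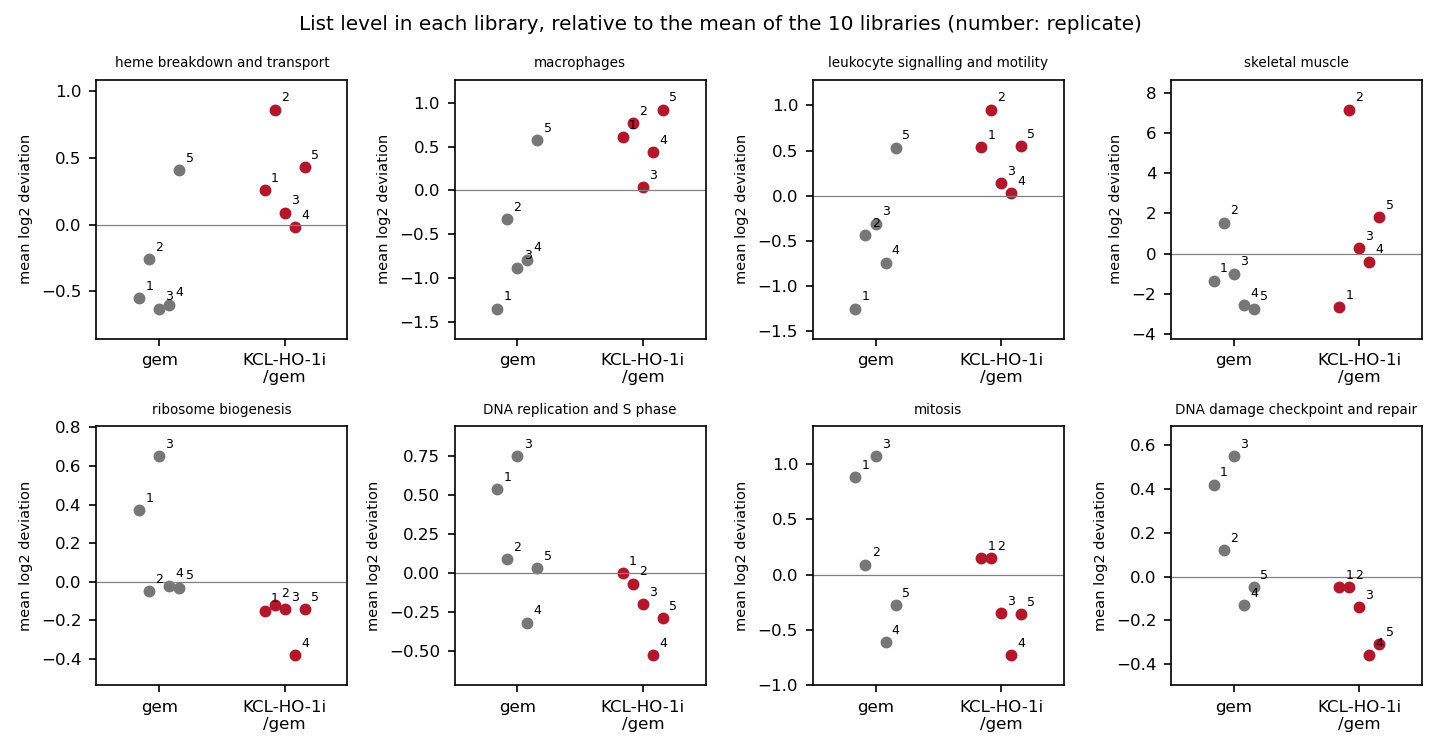
Mean log2 deviation from the 10-library mean for 8 gene lists in each tumour of the comparison. Points are numbered by replicate, and the grey line at 0 marks the 10-library mean. The macrophage list ran from -1.35 to 0.57 on gemcitabine and 0.04 to 0.92 on the combination, and the ribosome biogenesis list from -0.05 to 0.65 and -0.38 to -0.12, without overlap.

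DNA damage genes included the most marked lower gene of the checkpoint. Of 35, 11 were lower and 0 higher, beside 6.51% and 6.94% of all tested genes, 31 were negative, and the median was -0.46. Without gemcitabine replicate 3, 5 were lower (all tested genes 5.29%), and without gemcitabine replicate 5, 17 were (all tested genes 10.8%). In the fit with the mouse code 0 were lower and the median was 0.08. Chek1, the kinase that halts the cycle when replication forks stall, was 14.8, 12.9, 15.6, 9.93 and 9.64 CPM on gemcitabine and 7.04, 5.93, 8.26, 4.3 and 5.55 CPM on the combination. No library overlapped, and the log2 fold change was -1.01 ± 0.29 (SE; edgeR adjusted p = 0.282), between -1.16 and -0.91 with a library left out. In the fit with the mouse code it was -0.33 ± 0.75. Atm, the kinase of double-strand breaks, was 26.6 to 45.4 and 18 to 22.4 CPM, also without overlap (-0.69 ± 0.22, and -0.35 ± 0.56 with the mouse code). Brca1 and Fancm did not overlap either, at -0.85 ± 0.32 and -0.39 ± 0.21. Over all tested genes 0.959% lay below without overlap. Blm, a helicase on chromosome 7, had -0.84 ± 0.28, and -0.52 without gemcitabine replicate 3, then above the unadjusted limit, and 0.20 with the mouse code.

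The genes of gemcitabine's own route were mostly near 0, with 3 higher and 3 lower of 24 and a median of -0.10. Dck, the activating kinase, was 57.4, 54.1, 45.8, 47.6 and 47.8 CPM on gemcitabine and 41.5, 34, 41.8, 36 and 39.4 CPM on the combination. The groups did not overlap (-0.39 ± 0.15 SE; edgeR adjusted p = 0.300), and the value was -0.44 to -0.36 with a library left out. Rrm1, the large subunit of ribonucleotide reductase, was 203, 146, 276, 106 and 121 CPM against 124, 109, 102, 90.7 and 100 CPM. It lies on chromosome 7, overlapped, and had -0.70 ± 0.24 (edgeR adjusted p = 0.282), which was -0.45 without gemcitabine replicate 3, then above the unadjusted limit, and 0.04 with the mouse code. Rrm2, the small subunit, had -0.65 ± 0.44, and 1.41 with the mouse code. The p53 targets were balanced, with 2 higher and 3 lower of 30 and a median of 0.00. Cdkn1a (p21) was 63.6 to 149 and 52.8 to 255 CPM (0.29 ± 0.44, and -0.29 without combination replicate 3).

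Of 23 tested genes of cholesterol synthesis and uptake, 18 were negative, 4 were lower and 0 higher, with a median of -0.34. Sqle, squalene epoxidase, had -0.57 ± 0.20, and Dhcr7, which makes cholesterol in the last step, -0.53 ± 0.18, both with overlap. Sqle had 0.06 in the fit with the mouse code. Dhcr7 lies on chromosome 7 and had -0.39 without gemcitabine replicate 3. On the hypoxia and glycolysis list 30 of 35 were negative, with a median of -0.23, and the gene under the unadjusted limit was Slc2a1 (GLUT1), at 101 to 212 and 63.16 to 93.4 CPM without overlap (-0.74 ± 0.28, and -0.14 with the mouse code). Hyou1, a chaperone of the endoplasmic reticulum, was 223 to 395 and 159 to 214 CPM without overlap (-0.62 ± 0.19, and 0.02 with the mouse code), among 4 lower of 32 stress genes. Nuclear genes of oxidative phosphorylation were 0 higher and 0 lower of 41 in edgeR, with a median of 0.02.

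Sec23b, a coat protein of vesicles leaving the endoplasmic reticulum, had the next smallest p of the lower genes, at 58.9, 67, 70, 90.8 and 81.4 CPM against 54.9, 45.2, 38.7, 48.7 and 46.9 CPM (-0.65 ± 0.16, adjusted p = 0.282). The remaining lower genes named by the rule were Ttf2 (-0.45 ± 0.11), which ends transcripts at mitosis, Camsap1, Cul2, Ipo7 and Noa1, from -0.56 for Ipo7 to -0.41 for Noa1. In the fit with the mouse code Sec23b had -0.11, Camsap1 -0.06, Ttf2 0.00 and Ipo7 0.10. Ipo7 lies on chromosome 7 and had -0.44 without gemcitabine replicate 3.

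The place of the genes on the chromosomes was examined next. Deviations were taken from each gene's median over the 30 libraries. Over chromosome 7, the median log2 deviation of gemcitabine replicate 3 was 0.35, against -0.07 to 0.04 in the other 9 libraries of the comparison. The shift ran along the chromosome, with 0.24 to 0.55 in 13 successive blocks of 80 genes. Of 1051 tested genes there, 118 were lower in the comparison (11.2%), beside 6.51% of all tested genes. Without that library 39 of 1061 were lower (3.68%), beside 5.29% lower and 5.13% higher over all tested genes in that fit. Gemcitabine replicate 4 had a like shift at the far end of chromosome 11, with 0.67 to 0.75 in the last 3 blocks. The blocks of chromosome 11 were examined in that library only. Over the whole of chromosome 11 it was at 0.03, and gemcitabine replicates 1, 2 and 3 were at -0.11, 0.11 and -0.12. On chromosome 19, 55 of 479 genes were higher (11.5%), beside 6.94% of all tested genes. Without gemcitabine replicate 3 it was 8.54%, beside 5.13%.

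**Figure D4:**
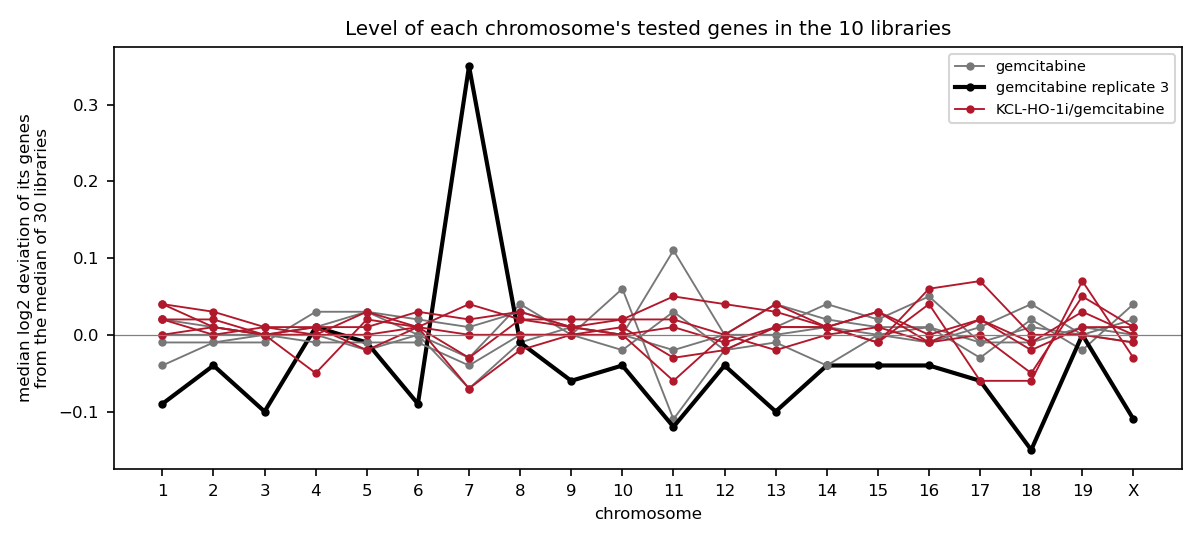
Median log2 deviation of the genes of each chromosome from their median over the 30 libraries, in each of the 10 libraries of the comparison. Gemcitabine replicate 3 is in black. On chromosome 7 that library was at 0.35 and the other 9 between -0.07 and 0.04.

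The same genes were followed in the backgrounds that share no library with this comparison. Mouse codes are shared, however: code 76 is also that of 5-FU replicates 1 to 3, code 70 that of KCL-HO-1i replicates 2 and 3 and KCL-HO-1i/5-FU replicate 3, code 71 that of KCL-HO-1i replicate 1 and code 84 that of vehicle replicate 1. Of the 948 higher genes, 90.6% had a positive sign in KCL-HO-1i against vehicle and 76.27% in KCL-HO-1i/5-FU against 5-FU, beside 67.1% and 63.6% of all tested genes with a positive sign here. Of the 890 lower genes, 89.1% and 71.5% were negative, beside 71.4% and 57.1%. With the same sign and an unadjusted p under 0.05 were 34.4% of the higher genes over vehicle and 11.3% over 5-FU, beside 14% and 8.07% of all genes with a positive sign here, and 9.66% and 12.4% of the lower genes, beside 3.66% and 8.34% of all with a negative sign. These shares are across genes, which are not independent. Lists of other tissues also moved in those backgrounds. The medians of the skeletal muscle, adipocyte and fibroblast lists were 6.87, 3.8 and 1.78 over vehicle, and -2.19, 0.07 and 0.55 over 5-FU. The part of such tissue in the shares was not tested. At an unadjusted p under 0.05 in all 3 backgrounds were 25 higher genes, among them Hmox1, Slc40a1, Slc11a1, Spic, Hcls1 and Lilr4b, and 5 lower genes, Atm, Abcf1, Rars, Ltn1 and Morc2a, named after their values were seen. Hmox1 had 1.63 ± 0.64 over vehicle and 3.20 ± 0.68 over 5-FU, and Slc40a1 1.31 ± 0.44 and 1.88 ± 0.45. Wdr3 had -0.13 ± 0.09 and 0.00 ± 0.09, Chek1 -0.26 ± 0.29 and -0.83 ± 0.29, and Trem2 0.45 ± 0.40 and 0.24 ± 0.40.

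**Figure D5:**
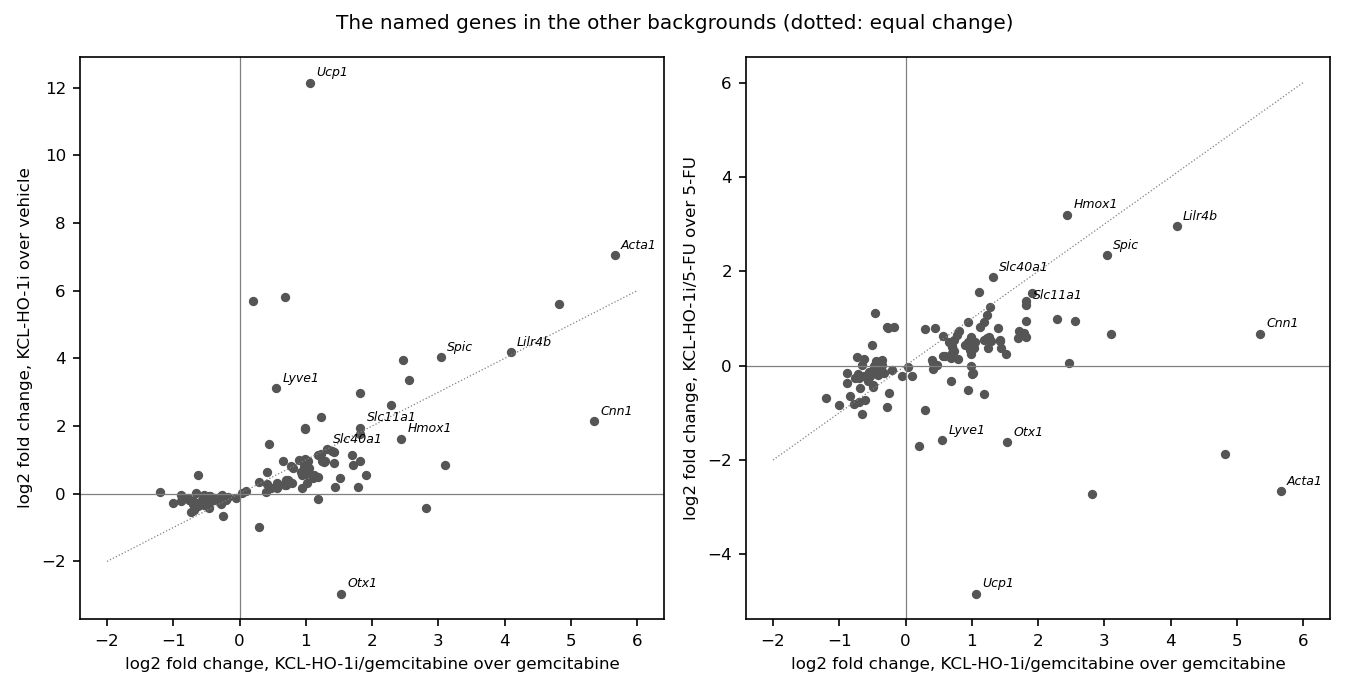
Log2 fold change of the named genes on adding KCL-HO-1i to gemcitabine (horizontal) against its addition to vehicle and to 5-FU (vertical), comparisons with no library but some mouse codes in common; each point is a gene. Hmox1 was at 2.44 here, 1.63 over vehicle and 3.20 over 5-FU.

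Whether the effect differed between backgrounds was tested directly. For the difference from the effect on vehicle, edgeR called 0 genes at an adjusted p of 0.05 and 183 at an unadjusted p under 0.05 (1.34%), and DESeq2 and limma-voom called 0. For the difference from the effect on 5-FU, edgeR called 0 adjusted and 926 unadjusted (6.78%), DESeq2 called 4 and limma-voom 0. Hmox1 had adjusted p = 1 against vehicle and adjusted p = 0.901 against 5-FU. Camsap1, a microtubule minus-end protein, had the smallest p against 5-FU (adjusted p = 0.517), being -0.50 ± 0.14 on gemcitabine and 0.43 ± 0.14 on 5-FU. Smurf2, Strada, Nab2 and Cog1 followed, and 3 of these, Smurf2, Strada and Cog1, lie on chromosome 11. Gemcitabine replicate 4, which had a shift at the end of that chromosome, stood apart for Smurf2 at 211.5 CPM. That end was not examined in the other libraries. With 1 library left out, the log2 fold changes on gemcitabine ran from -0.58 to -0.22 for Smurf2, -0.38 to -0.2 for Strada and -0.37 to -0.08 for Cog1. The part of the shift in these differences was not tested. Against vehicle, the smallest p were those of Rfx2, Otx1, Ucp1, Cidea and Wbp1l. Ucp1 and Cidea, genes of brown fat, were high in few libraries, with Ucp1 at 53.2 CPM in combination replicate 1 and 0 to 0.268 CPM in the other 4.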

How the data were processed

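Bulk RNA from 30 mammary tumours was sequenced, 5 libraries in each of 6 groups taken from the titles. Per the submitters' processing notes and the methods, the authors used FastQC 0.11.9, STAR 2.7.9a, Salmon 1.9.0 and tximport with build mm10. The deposited values are expected counts per gene, as the authors' estimates need not be whole (38% were not), although the methods speak of TPM. They were rounded. edgeR 4.0.16 in R 4.3.3 (TMM, filterByExpr with minimum count 10, robust quasi-likelihood fit of 6 group means) tested 13663 of 21841 genes, two-sided, with Benjamini-Hochberg adjustment and a threshold of 0.05. Untested genes held 0.0564% of counts. CPM used effective library sizes. The p-values measure the spread between these libraries. At 3 counts the floor is 0.222 to 0.302 CPM in the combination, and it covers counting error only. On simulated data with the same groups (13598 genes), 65% of 2-fold and 96% of 4-fold planted changes were recovered. The changes were planted only in genes of higher counts, so these rates do not cover low genes. Each simulated gene varied independently, without the tissue or chromosome shifts of single libraries.

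Named genes were a fixed set, then in each direction the 15 genes of smallest p that had no overlap between groups and at least 1 CPM on average in the higher group, the 3 smallest p in each of 45 lists, and 5 for each difference of differences. Members, lists and rules were chosen with earlier results of these data known. RefSeq names of GRCm38.p6 placed 13476 tested genes. Alternatives were DESeq2 1.42.0, limma 3.58.1 voom, other normalisation and filters, a replicate block, the mouse code, and libraries left out. No sequences were printed, and results for some genes are not reported here.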

Additional observations from a re-analysis of the deposited data

Results flagged for a closer look

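Dixon's criterion for a library far from the other 4 of its group was applied to 264 groups of 5 values of the named genes and marker sums, and 56 were past it. The criterion passes about 1 in 20 groups of independent normal values. These were CPM values, and many groups were markers of the same tissue, so the 56 cannot be set against that rate. The libraries with the most were KCL-HO-1i/gemcitabine replicate 2 (20) and gemcitabine replicate 5 (16).

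In KCL-HO-1i/gemcitabine replicate 2, the summed levels were 17770 CPM for skeletal muscle, 16290 CPM for white adipocytes, 9472 CPM for fibroblasts and 1184 CPM for vessel endothelium. Its single genes of those tissues were Acta1 (3945 CPM), Des (730 CPM), Lpl (1281 CPM), Adipoq (569 CPM), Col1a1 (1825 CPM) and Pecam1 (152 CPM). It was also high for Adamts5 (160 CPM), Cxcl12 (147 CPM), Gstm1 (135 CPM), Maf (102 CPM), Sod1 (205 CPM), Pf4 (32.1 CPM), Kank3 (21.2 CPM), Ccl5 (6.74 CPM) and Cxcl9 (4.93 CPM), and low for Slc2a1 (63.16 CPM).

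Gemcitabine replicate 5 had sums of 743.7 CPM for haemoglobin and 2932 CPM for adipocytes. Its genes were Adipoq (112 CPM), Lpl (178 CPM), Adamts5 (29.1 CPM), Pecam1 (55.1 CPM), and the macrophage genes Cd68 (44 CPM), Mrc1 (55 CPM), Maf (28.1 CPM), Lyve1 (15 CPM), Vcam1 (19.1 CPM), Slc11a1 (11.4 CPM), Slco2b1 (13.7 CPM), Lcp2 (9.64 CPM), Hpgd (5.66 CPM) and Spic (0.596 CPM).

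In the other combination libraries, replicate 1 was far from its group for Atm (18 CPM), Shmt2 (99.7 CPM) and Ucp1 (53.2 CPM), replicate 3 for Acta2 (658 CPM), Cnn1 (112 CPM), Otx1 (6.11 CPM) and Wdr3 (44.6 CPM), replicate 4 for Cd8a (3.17 CPM) and Cxcl16 (29.2 CPM), and replicate 5 for Ccl21a (12.8 CPM). In the other gemcitabine libraries, replicate 1 stood apart for Pole (24 CPM), replicate 2 for Acta1 (69.37 CPM), Des (15.2 CPM) and the muscle sum (362 CPM), replicate 3 for Cd3e (3.48 CPM), Cd8b1 (1.46 CPM), Cdkn1a (149 CPM) and Rrm2 (226 CPM), and replicate 4 for Smurf2 (211 CPM) and the luminal sum (8289 CPM).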

How the results depend on the processing

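Muscle, fat and chromosome 7 levels moved with single libraries. Under 19 alternatives, 92 of 122 genes followed kept their direction. Many of them were named for a small p or a lack of overlap in these same data, which favours a kept direction. The count is therefore no independent check. With a library left out, genes past the adjusted limit stayed between 0 and 0 in each of the 3 tests, higher genes ran from 580 (without combination replicate 2; 623 without gemcitabine replicate 1) to 1382, lower genes from 688 to 1498 (without gemcitabine replicate 5), and genes that differed from the effect on vehicle from 126 to 505 (without combination replicate 2; also 364 without vehicle replicate 3, 410 without gemcitabine replicate 4 and 303 without KCL-HO-1i replicate 5), and on 5-FU from 745 to 1405 (without gemcitabine replicate 5). DESeq2 called 45 genes, and 4 for the difference from 5-FU. The mouse code as a covariate left 417 lower genes and 319 that differed from the effect on vehicle. For that difference, voom gave 451, no filter 403 and leaving out both libraries 469, and voom gave 1690 for 5-FU. The cause of these moves was not tested.

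Replicate numbers did not pair the libraries (same-number correlations -0.212, 0.102, -0.0274, 0.429 and 0.268, 1 of 5 correlating best with its own number). With a replicate block, 0 genes passed the adjusted limit, 744 were higher and 773 lower.

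Directions turned as follows on the log2 scale. With the mouse code they were Hmox2 -0.29, Blvra -0.32, Tfrc 1.41, Gzmb -2.39, Ccl21a -13.41, Ccl5 -0.60, Ttf2 0.00, Gemin5 0.02, Heatr1 0.08, Ipo7 0.10, Mki67 0.95, Top2a 0.76, Pole 0.61, Ccne1 0.10, Fen1 0.08, Rrm1 0.04, Rrm2 1.41, Blm 0.20, Cdkn1a -0.48, Ckap2 0.42, Sqle 0.06, Hyou1 0.02 and Ucp1 -2.23. With voom they were Cd3e 0.36, Cxcl12 -0.11, Epcam 0.03, Cdkn1a -0.04 and Ucp1 -1.13, and without both libraries Ccl5 -0.13, Cxcl12 -0.36 and Epcam 0.10. With 1 library or both left out, the ranges were Hmox2 -0.03 to 0.08, Lyve1 -0.54 to 2.19, Cd8a -1.04 to 0.27, Cd3e -1.03 to 0.51, Gzmb -0.10 to 0.70, Ccl21a -1.71 to 0.95, Ccl5 -0.24 to 0.85, Cxcl9 -0.12 to 1.28, Cxcl12 -0.43 to 0.68, Epcam -0.16 to 0.10, Cdkn1a -0.29 to 0.55, Ucp1 -5.22 to 1.96 and Cidea -0.20 to 1.07.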

Other observations

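Other gene lists gave smaller counts, again with no gene past the adjusted limit of edgeR. Over all tested genes 6.94% were higher and 6.51% lower at the unadjusted limit. Matrix proteases and their inhibitors had 8 of 27 tested genes higher and 0 lower, with a median log2 fold change of 0.64. Ctsl, a lysosomal protease, was 225 to 404 CPM on gemcitabine and 335 to 574 CPM on the combination (0.69 ± 0.22 SE), and Mmp11, stromelysin 3, had 1.27 ± 0.46. Adamts5, an aggrecanase, had 2.29 ± 0.82, and 0.59 without KCL-HO-1i/gemcitabine replicate 2. Without that library 2 of 27 matrix protease genes were higher, and without KCL-HO-1i/gemcitabine replicate 4 it was 12 of 28; gemcitabine replicate 3 left out gave 4. Collagen chains had 3 higher and 1 lower of 27, with a median of 0.93. That count was 0 (median 0.17) without KCL-HO-1i/gemcitabine replicate 2, 0 without gemcitabine replicate 1, 2 or 3, 1 without gemcitabine replicate 4, and 13, 11, 10, 7 and 6 without KCL-HO-1i/gemcitabine replicate 4, gemcitabine replicate 5 and KCL-HO-1i/gemcitabine replicates 3, 1 and 5. Pericyte and smooth muscle genes had 6 higher of 13, and 3 without KCL-HO-1i/gemcitabine replicate 3.

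Antigen presentation and adaptive immune lists had few members under the unadjusted limit, where 6.94% of all tested genes were higher and 6.51% lower. Most of the counts below were near those shares. For dendritic cells and MHC class II, 1 of 19 was higher, Irf8, a transcription factor of dendritic cells and monocytes, at 4.98 to 19.2 and 17.5 to 31.5 CPM (1.00 ± 0.37). MHC class I had 1 of 20 higher, immune checkpoints 1 of 16, inflammatory cytokines and growth factors 2 of 23, and B cells and plasma cells 1 of 6, each with 0 lower. Lymphatic endothelium had 1 higher of 7 and basal epithelium 1 higher and 1 lower of 11.

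In the luminal list 2 of 20 were lower, beside 6.51% of all tested genes. They were Cdh1, which encodes E-cadherin (-0.46 ± 0.16), and Ceacam1, an adhesion protein (-0.72 ± 0.27). Milk protein genes were all positive, 13 of 13, with a median of 0.63 and 0 higher or lower in edgeR at the unadjusted limit, but 7 of 13 were higher, with a median of 2.24, without gemcitabine replicate 5. Fatty acid synthesis had 1 higher of 16, near the 6.94% of all tested genes, and heat shock and metallothionein genes 0 of 17 with a median of -0.29. The 13 protein genes of the mitochondrial genome were all positive with a median of 0.44 and 0 called, and haemoglobin and red cell genes had 1 lower of 7 with a median of -1.48, where gemcitabine replicate 5 held 743.7 CPM. Without that library the direction turned, to 2 higher and a median of 2.27.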
